A study of Mus musculus with 64 samples.

Results

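Neutrophils arm themselves in stages while they mature. Promyelocytes fill azurophil (primary) granules with the serine proteases neutrophil elastase (Elane), proteinase 3 (Prtn3) and cathepsin G (Ctsg) and with myeloperoxidase (Mpo). Later precursors load specific (secondary) and gelatinase granules with lactoferrin (Ltf), the cathelicidin precursor (Camp), neutrophilic granule protein (Ngp) and the collagenase Mmp8, and they accumulate the cytosolic calcium-binding proteins S100a8 and S100a9, the 2 chains of calprotectin. The transcripts of most of these proteins are made in precursors and are largely switched off in mature blood neutrophils. The liver is the main blood-forming organ of the mouse fetus and gives up this role to the bone marrow around birth. These 10 genes, taken by symbol for their known place in neutrophil granules and cytosol, are described here out of 23338 genes listed.

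RNA-seq read counts per gene were available for 64 libraries of the C57BL/6 strain, with no genetic or drug treatment other than the 2i culture of the ES cells. They came from whole eight-cell embryos (6 male, 6 female), from ES cells grown in 2i, an inhibitor medium (2 male, 2 female), from fetal livers of late gestation (12 male, 12 female) and from livers of adult mice (12 male, 12 female). Embryo libraries were made by a protocol for single cells that amplifies cDNA, and the others from total RNA, so levels set side by side between embryos and the rest also differ in protocol. Reads counted on genes ranged from 4659656 to 7725432 in embryos, from 9857929 to 10386931 in ES cells, from 5145371 to 8499603 in fetal livers and from 1567583 to 4757610 in adult livers. Levels are given as CPM, counts divided by library size with TMM scaling over all 64 libraries, and 3 reads corresponded to at most 0.583 CPM in a fetal liver and 1.91 CPM in an adult liver before this scaling. Liver is a mixed tissue, and in such bulk samples fewer cells of a type and less RNA per cell cannot be told apart. The labelled tissue was checked with 8 hepatocyte markers, whose summed level was 35009 to 47863 CPM in fetal and 48284 to 71598 CPM in adult livers, against at most 103 CPM in embryos and 5.42 CPM in ES cells.

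All 10 genes were read in each of the 24 fetal livers, where together they took 0.202% to 0.398% of the reads on genes (median 0.291%). In the 24 adult livers they took at most 0.000808%. In total, 460010 reads of 162152805 in fetal livers and 146 of 66291545 in adult livers fell on them. Intervals of the ratios below come from reads pooled over all livers of a stage, so they leave out the spread between livers. Intervals and floors cover counting error only, and the libraries carried no molecular identifiers, so reads rather than molecules were counted.

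**Figure D1:**
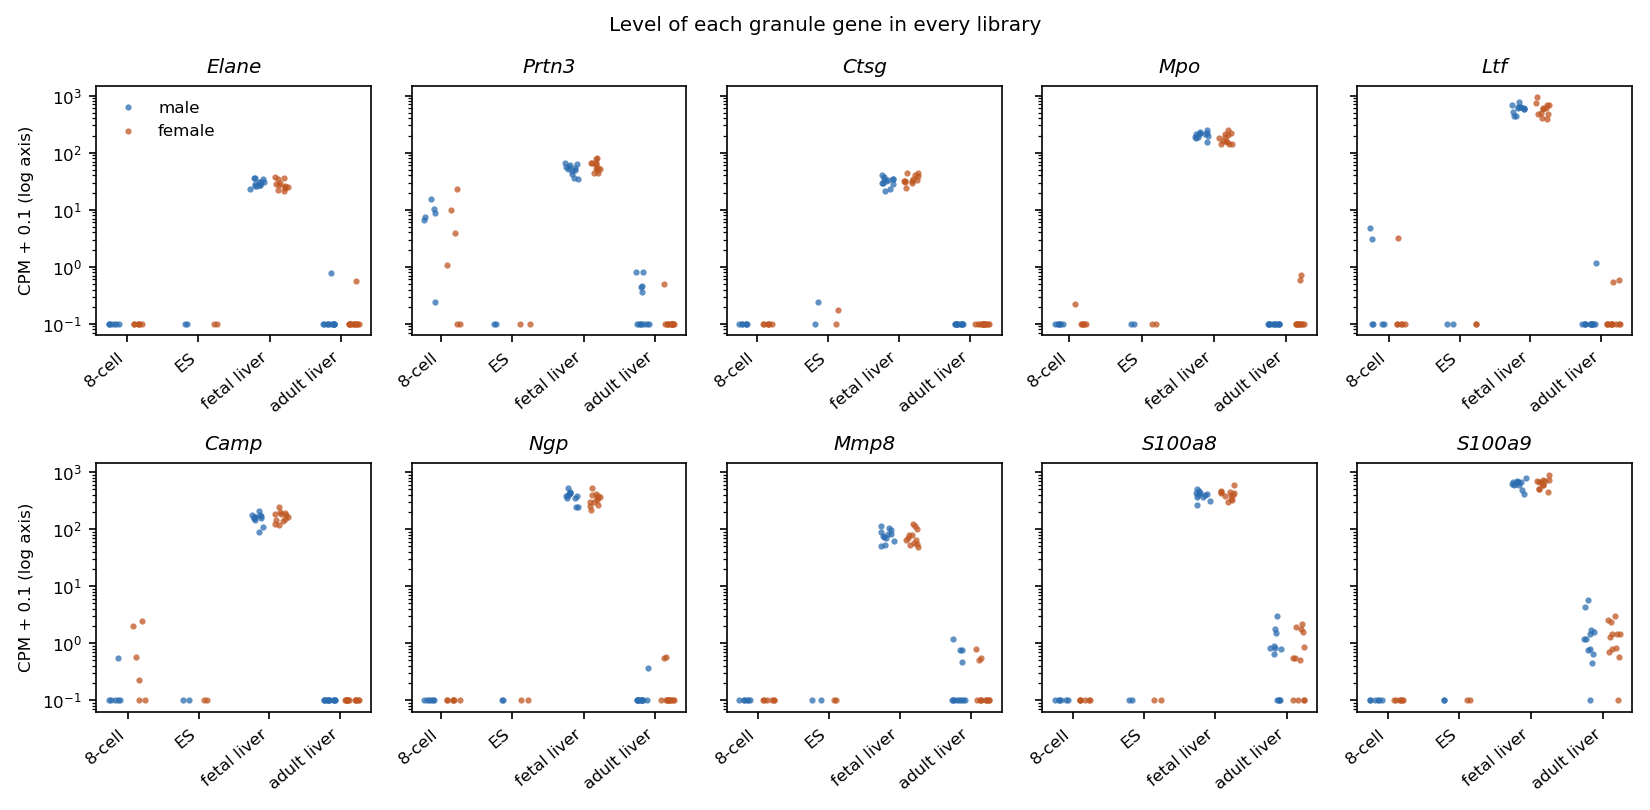
Level of each of the 10 granule genes in every library by stage, as CPM with 0.1 added so that libraries without reads can be drawn on the log axis; each point is 1 library, blue male and orange female. The 24 fetal livers stand above every other library for each gene, and most genes lie at 0 elsewhere. S100a8 and S100a9 keep a few reads in most adult livers, and Prtn3 has reads in 10 of 12 eight-cell embryos. The genes were chosen with earlier results of these data known. How many of all genes separate in this way was not counted, so the separation is a description.

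The azurophil granule genes were present at moderate levels in fetal liver and nearly absent in the adult. Elane, a serine protease that degrades bacterial proteins and matrix, was read at 21.5 to 37.9 CPM in fetal livers, with a median of 27.8. In adult livers it had 2 reads in all, 1 each in 2 livers, and the pooled level was 770-fold higher in fetal liver (95% exact interval 213 to 6357). Prtn3, its close relative, was read at 34.8 to 81.1 CPM (median 54.1) in fetal livers. It had 7 reads in 6 of the 24 adult livers, a ratio of 424 (206 to 1055). Neither gene's fetal and adult ranges came near each other, the lowest fetal liver being 31.1 times the highest adult liver for Elane and 48.3 times for Prtn3.

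Ctsg, the third protease, was read at 21.3 to 43.7 CPM in fetal livers (median 32.3) and had no read in any of the 24 adult livers, which makes the fetal level at least 589-fold higher against a floor of 3 reads over the adult group. Mpo, the haem enzyme that makes hypochlorous acid from hydrogen peroxide, was the most counted azurophil gene, at 140 to 248 CPM in fetal livers (median 191). It had 2 reads in adult livers, a ratio of 5115 (1416 to 42242). An antisense gene, Gm11505, overlaps Mpo in the GENCODE annotation and is not among the genes counted, and whether counting used the strand is not given in the sources used here, so reads from Gm11505 and Mpo cannot be told apart if it did not. No annotated gene overlapped any of the other 9 genes.

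Elane and Prtn3 are neighbours on chromosome 10 of GRCm38, on the same strand and 3137 bases apart (Prtn3 at chr10:79879667-79883174, Elane at chr10:79886312-79888216). Ctsg lies at chr14:56099885-56102574 on the minus strand and Mpo at chr11:87793784-87804412. The 250 bases upstream of the RefSeq start (GRCm38.p6) are shown for the protease genes because the neighbours share an arrangement of short motifs. Capitals mark AGGAAGT (the core that PU.1 binds), AACGG (the core that MYB binds), TTNNGNAA (a loose C/EBP core) and TATAA. The first 3 were searched on both strands and TATAA on the gene's strand.
Elane, chr10:79886062-79886311, plus strand: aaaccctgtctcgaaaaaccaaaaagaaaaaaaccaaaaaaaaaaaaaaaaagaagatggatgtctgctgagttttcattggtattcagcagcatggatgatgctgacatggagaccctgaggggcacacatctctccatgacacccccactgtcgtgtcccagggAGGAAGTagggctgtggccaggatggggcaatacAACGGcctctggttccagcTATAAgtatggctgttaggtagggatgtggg
Prtn3, chr10:79879417-79879666, plus strand: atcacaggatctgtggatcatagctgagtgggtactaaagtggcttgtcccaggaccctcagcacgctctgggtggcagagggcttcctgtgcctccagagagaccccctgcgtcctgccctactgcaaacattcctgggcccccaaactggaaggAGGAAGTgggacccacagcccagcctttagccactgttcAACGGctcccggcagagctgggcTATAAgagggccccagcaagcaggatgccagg
Ctsg, chr14:56102575-56102824, minus strand: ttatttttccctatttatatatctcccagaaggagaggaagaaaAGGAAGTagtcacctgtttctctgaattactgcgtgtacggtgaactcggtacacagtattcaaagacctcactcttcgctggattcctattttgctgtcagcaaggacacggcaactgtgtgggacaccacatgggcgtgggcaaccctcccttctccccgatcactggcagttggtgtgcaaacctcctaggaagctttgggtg

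In Elane the 3 motifs begin 84, 50 and 31 bases before the start, and in Prtn3 94, 55 and 32 bases, in the same order and on the same strand. Ctsg carries AGGAAGT alone, 206 bases upstream. Among the 10 genes, AGGAAGT or its complement was in 6 windows (Elane, Prtn3, Ctsg, Mpo, Mmp8, S100a8), AACGG in 2 (Elane, Prtn3), TTNNGNAA in 5 (Ltf, Ngp, Mmp8, S100a8, S100a9) and TATAA in 3 (Elane, Prtn3, S100a8). Of 32851 windows of the same length upstream of all RefSeq starts, 7.69% held AGGAAGT, 14.5% AACGG, 36.8% TTNNGNAA and 15.997% TATAA. These matches describe the letters only, and binding was not measured.

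Ltf and Ngp were the most counted genes of the later granules in fetal liver. Ltf, an iron-binding protein, stood at 392 to 935 CPM (median 605) and had 5 reads in 3 adult livers, a ratio of 6360 (2725 to 19587). Ngp, a cystatin-like protein of the specific granule, stood at 213 to 522 CPM (median 373) and had 3 reads in adult livers, a ratio of 6458 (2210 to 31319). Camp, from which the antimicrobial cathelicidin peptide is cut, stood at 90.8 to 247 CPM (median 164) and had no adult read, which makes it at least 2907-fold higher in fetal liver. Mmp8, which cleaves fibrillar collagen, was the least counted of this class, at 49.2 to 124 CPM (median 74.7), and had 9 reads in 7 adult livers, a ratio of 466 (245 to 1018). Ltf, Camp and Ngp lie on chromosome 9 within 1170 kb of each other, at chr9:111019292-111042766, chr9:109847377-109849456 and chr9:110419808-110423012, with many other genes between them. Mmp8 is on the same chromosome at chr9:7558429-7568486.

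The calgranulins were the members still read in most adult livers. S100a9 stood at 411 to 897 CPM in fetal livers (median 662) and at 0 to 5.73 CPM in adult livers (median 1.14), with 76 reads spread over 22 of 24 livers and at most 12 in 1 liver. S100a8 stood at 267 to 596 CPM in fetal livers (median 411) and at 0 to 2.87 CPM in adult livers (median 0.620), with 42 reads in 16 livers. The fetal level was 447-fold higher for S100a9 (357 to 568) and 517-fold higher for S100a8 (383 to 718). These 2 genes held 118 of the 146 adult reads. They lie 22595 bases apart on chromosome 3 (S100a8 at chr3:90669071-90670034, S100a9 at chr3:90692630-90695721 on the opposite strand).

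In the edgeR comparison of the 48 livers, each of the 10 genes was called lower in adult liver. Across the 13026 genes tested, 35.4% were called lower and 31.7% higher in adult liver, at a Benjamini-Hochberg adjusted p under 0.1 and an absolute log2 above 0.5. The members passed the filter on low counts only through the fetal livers and so had to differ, and with so few adult reads their fitted log2 values are set largely by the floor. The ratios and bounds of pooled reads above are therefore given in place of the fitted values, and nothing is read from the count.

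Divided by transcript length, the order of the fetal levels changed. S100a9 led at a median of 1275 CPM per kb (793 to 1728), followed by S100a8 at 847 (549 to 1226), and S100a9 was above S100a8 in 24 of 24 livers. Ngp followed at 305 CPM per kb and was above Ltf in 24 of 24 livers. Ltf and Camp, at 221 and 216 CPM per kb, were not ordered, each being above the other in 12 livers. Mpo stood at 69.3 and Prtn3 at 52.8 CPM per kb, each above the next gene in 24 livers. Ctsg at 32.3, Mmp8 at 30.8 and Elane at 28.2 CPM per kb closed the order with overlapping ranges: Ctsg was above Mmp8 in 14 of 24 livers and Mmp8 above Elane in 12. Per length, Ltf, Camp, Ngp and the calgranulins stood above the 4 azurophil genes in every fetal liver, and Mmp8 did not.

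Other genes of the neutrophil lineage differed in the same direction between the stages. Of 30 further granule and effector genes, 28 were tested and called lower in adult liver, where 35.4% of all genes were, but only 9 of these 28 had enough reads to be tested in adult livers alone, and the others entered through the fetal livers and had to differ. Those 9, which include Lyz2 and the oxidase subunit Ncf1, had fetal medians above their adult medians. Olfm4, Fcnb and Ms4a3 differed most: their fetal medians were 149, 43.7 and 19.3 CPM, and none had a read in any adult liver. Of 5 genes that process or pack granule proteases, Cd63, Slpi, Srgn and Serpinb6a were lower in adult liver and Ctsc, the protease that activates elastase and its relatives and is made by many cell types, was higher (log2 1.37, SE 0.05, adjusted p = 7.07e-34).

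Of 12 tested regulators of granulocyte formation, 8 were called lower and 2 higher in adult liver, against 35.4% and 31.7% of all genes; 6 of the 12 had enough reads to be tested in adult livers alone. Myb, a transcription factor of immature blood cells, fell from a fetal median of 65.5 CPM (39.9 to 78.0) to 5 reads in all adult livers, and Gfi1 from 8.04 CPM to 4 reads. Runx1 had a fetal median of 17.2 CPM (9.50 to 28.1) and an adult median of 1.32 CPM (0 to 3.79). Myb, Gfi1 and Runx1 lacked enough reads to be tested in adult livers alone. They entered through the fetal livers, so their calls were largely fixed by the filter. The 2 that were higher in adult liver, Cebpa (log2 1.47) and Cebpb (log2 2.92), also serve in hepatocytes.

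Markers of other blood cells differed between the stages beside the granule genes, and their part in the result was not tested. Summed over each list, erythroid markers stood at 5016 to 7345 CPM in fetal and 54.5 to 358 CPM in adult livers, megakaryocyte markers at 108 to 318 and 2.79 to 10.1 CPM, and monocyte markers at 95.6 to 171 and 6.79 to 25.7 CPM. The 7 erythroid, 6 megakaryocyte and 5 monocyte genes tested were called lower in adult liver (35.4% of all genes), but only 2, 0 and 1 of them had enough reads in adult livers alone, so these counts were largely fixed by the filter. Eosinophil markers, which share granule biology with the neutrophil, summed to 27.8 to 90.9 CPM in fetal and at most 2.94 CPM in adult livers, and the 3 tested, none of which had enough reads in adult livers alone, were called lower. Macrophage and Kupffer cell markers summed to 607 to 923 CPM in fetal and 450 to 1287 CPM in adult livers, and single genes moved both ways. Of 11 tested, 4 were called lower and 2 higher in adult liver, against 35.4% and 31.7% of all genes. Marco differed most (log2 -2.61, fetal median 93.7 and adult median 14.3 CPM). Vsig4 and Clec4f were the 2 called higher.

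Male and female fetal livers had granule gene levels that overlapped for every member, and the share of all genes that overlapped was not counted. No member was called different by edgeR, where 4.64% of the 12930 genes tested were called, 3.81% higher and 0.828% lower in male livers. At that share, little is read from the absence of calls among 10 members. All 10 members were tested. DESeq2 called none of them either, and 1 of 10 had an unadjusted p under 0.05 in edgeR, against 40.5% of all genes. The median log2 (male/female) was 0.02 over the members and -0.03 over all genes tested.

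**Figure D2:**
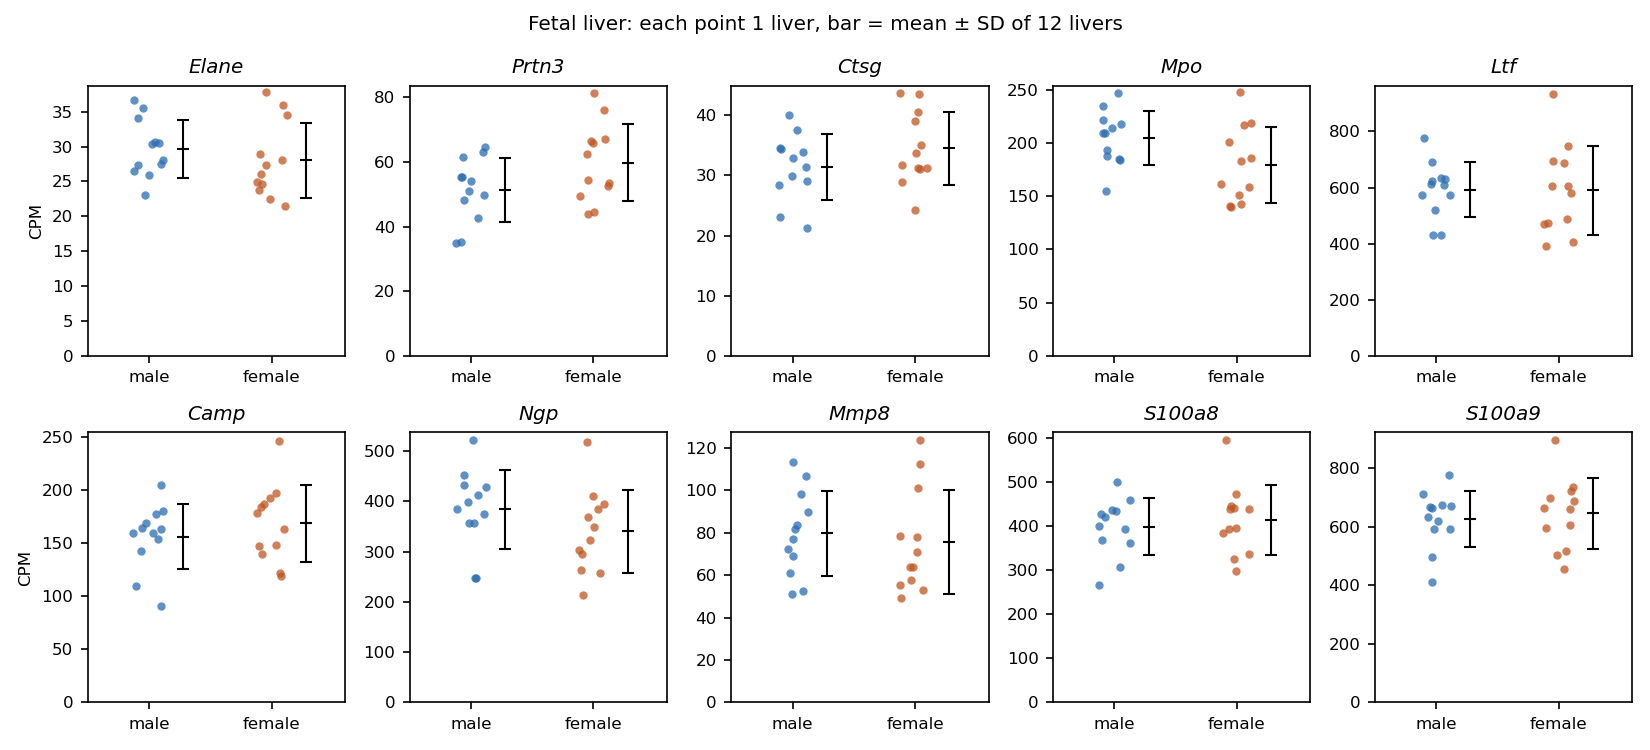
CPM of each granule gene in male (blue) and female (orange) fetal livers, 1 point per liver, with the mean and SD of 12 livers as a black bar; axes start at 0. Male and female points overlap for all 10 genes, with Mpo somewhat higher in males (mean 205 against 179 CPM) and Prtn3 somewhat lower (51.3 against 59.7 CPM).

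Mpo came closest to a difference. It ran from 155 to 247 CPM in male fetal livers (median 210) and from 140 to 248 CPM in females (median 172). The log2 (male/female) was 0.23 (SE 0.09), with an adjusted p of 0.052 by edgeR, under 0.1 (as for 37.2% of all genes) but short of the fold required for a call; over 30 alternative fits this p ranged from 0.013 to 0.87. Prtn3 leaned the other way, from 34.8 to 64.7 CPM in males (median 52.5) and from 43.9 to 81.1 CPM in females (median 58.3), with a log2 of -0.19 (SE 0.11, edgeR adjusted p = 0.21). Ngp had a log2 of 0.21 (SE 0.12, edgeR adjusted p = 0.21). The remaining 7 members lay between -0.10 and 0.12 with edgeR adjusted p-values of 0.33 to 0.97. The approximate 95% intervals of the 10 differences reached from -0.40 for Prtn3 to 0.46 for Ngp, within the log2 of 0.5 required for a call in either direction.

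The share of counted reads that lay outside genes did not overlap between the sexes, which ran from 39.9% to 49.0% in males and from 34.1% to 38.1% in females, so this share and sex cannot be told apart. With the share as a covariate, the log2 (male/female) of all 10 members was positive, from 0.16 to 0.61, with a smallest edgeR adjusted p of 0.87. When only the 6 males with a share of 42% or less were compared with the females, the log2 of Mpo was 0.31 (adjusted p = 0.081) and no member was called.

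Within a library, the ratio of Mpo to Prtn3 reads separated the sexes. Male fetal livers had 3.43 to 5.32 Mpo reads for each Prtn3 read (median 3.91) and female livers 2.78 to 3.24 (median 2.99), with no overlap among the 24 livers. This pair was picked out after its values were seen, so no test is given. It was the only one of the 45 ratios between members without overlap between the sexes (2.22%). For scale, of 8766 genes outside the list with a median of at least 100 reads, 9 (0.103%) had a ratio to Prtn3, and 3 (0.0342%) a ratio to Mpo, that did not overlap between the sexes. The ratio rose with the share of reads outside genes among the 12 males (r = 0.86, and 0.63 without the male with the highest share) and not among the 12 females (r = -0.23), as a description; the part of this share in the separation was not tested.

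**Figure D3:**
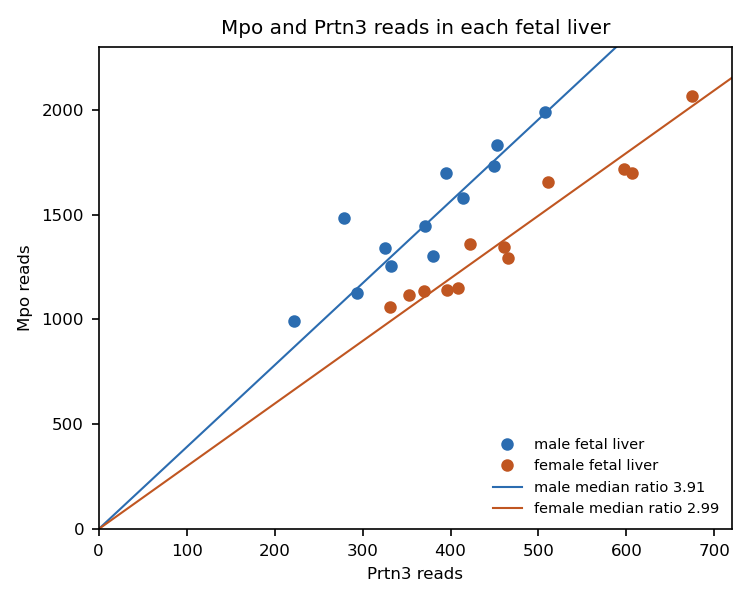
Mpo reads against Prtn3 reads in each of the 24 fetal livers (blue male, orange female); the lines have the median ratio of each sex, 3.91 in males and 2.99 in females. All male points lie above all female points in ratio, although the levels of each gene overlap.

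Related lists gave few sex differences in fetal liver. None of the 28 further neutrophil genes tested was called, where 4.64% of all genes were, so little is read from this count. Of 12 regulators tested, Runx1 was called higher in male fetal livers, where 3.81% of all genes were (log2 0.78, SE 0.09, edgeR adjusted p = 4.61e-07). Of 3 eosinophil markers tested, 2 were called lower in males, where 0.828% of all genes were: Prg2 with a log2 of -0.50 (SE 0.16, edgeR adjusted p = 0.019) and Epx with -0.52 (SE 0.15, edgeR adjusted p = 0.011). The third, Ear1, had a log2 of -0.43 (edgeR adjusted p = 0.065). With the share of reads outside genes as a covariate, 9 genes in all were called between the sexes.

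In adult liver none of the 10 members passed the filter on low counts, so male and female livers could not be compared for them, where 9.49% of 10372 genes tested were called. S100a9 had 43 reads in male and 33 in female adult livers, with medians of 1.07 and 1.28 CPM, and S100a8 had 24 and 18 reads, with medians of 0.707 and 0.456 CPM. The stage by sex interaction was called for no member by edgeR or DESeq2 (13.7% of all genes by edgeR), and no member had an unadjusted p under 0.05. Since 8 of the 10 members had 0 to 9 adult reads in all, these counts say nothing about the members. For S100a9, the member with the most adult reads, the interaction had a log2 of 0.06 (approximate 95% interval -0.86 to 0.99), and for S100a8 of 0.10 (-1.08 to 1.27), wide intervals that follow from the few adult reads.

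Of the further neutrophil genes, 9 had enough reads to be tested in adult liver and 6 were called lower in males, where 6.48% of all genes were called lower. The most read of them, Lyz2, which encodes lysozyme and was singled out after its values were seen, had a log2 of -0.68 (SE 0.11, edgeR adjusted p = 2e-05). Macrophages also express Lyz2 and most of these genes, and 8 of 11 macrophage and Kupffer cell markers were called lower in male adult livers too; their part in the result was not tested.

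Fetal livers differed from one another in the level of the whole set, and the same livers were high or low for most members. Female fetal liver 13 was the highest of all 24 for 9 of the 10 genes, with 935 CPM of Ltf and 897 CPM of S100a9, and male fetal liver 4 was among the 3 highest for 8 genes. Male fetal liver 5 and female fetal liver 14 were among the 3 lowest for 8 genes each, and male fetal liver 11, with the highest share of reads outside genes, for 7. The biological coefficient of variation between livers of 1 sex, estimated by edgeR, ran from 0.141 for Elane to 0.260 for Mmp8, against a common value of 0.124. Mmp8 stood at the 94.6th percentile of all genes and Elane at the 72.7th. The azurophil genes had values of 0.141 to 0.181 and the genes of the later granules 0.196 to 0.260, while S100a8 and S100a9 had 0.163 and 0.159.

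All 45 pairs of members were positively correlated over the 24 fetal livers once sex means had been removed. Pearson's r ran from 0.54 to 0.98 with a median of 0.82, and Spearman's rho from 0.48 to 0.97 with a median of 0.79. Every pair had an adjusted p under 0.05 by permutation within sex, over 45 pairs and with 100000 resamples (largest 0.010 for r and 0.024 for rho). For scale, the median r of a member with the 12920 tested genes outside the set ran from 0.02 for Elane to 0.07 for Mmp8. The share of those genes with an r over 0.8 ran from 0.04% for Elane to 1.65% for Ltf. The median r was 0.77 among males alone and 0.86 among females alone, and 0.76 without the 2 livers farthest from the median of the first gene of each pair. Both genes of a pair were measured in the same libraries and scaled together, and the values describe how the livers differed.

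S100a8 and S100a9 were the closest pair (r = 0.98, rho = 0.92, permutation adjusted p = 1.4e-05, the smallest the resamples allow after adjustment; r = 0.97 without 2 livers), and each was the gene most correlated with the other among all 12930 genes tested. Ngp and S100a9 had an r of 0.97 (rho 0.97). Prtn3 and Mpo were likewise each other's closest gene (r = 0.91, rho 0.92, and 0.94 without 2 livers), and Mpo was the closest gene to Elane (r = 0.87). The neighbours Elane and Prtn3 had an r of 0.79.

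Grouped by granule class, pairs within the azurophil class had a median r of 0.86 (0.79 to 0.91) and pairs within the later class one of 0.91 (0.72 to 0.95), while pairs between these classes had a median of 0.77 (0.54 to 0.89). Pairs of a later granule gene and a calgranulin had a median r of 0.95 (0.81 to 0.97), and pairs of an azurophil gene and a calgranulin one of 0.76 (0.71 to 0.82). Mmp8 was the least tied to the azurophil genes, with its lowest r of 0.54 with Mpo (rho 0.48, permutation adjusted p = 0.010 for r and 0.024 for rho). This lowest pair fell to 0.33 among males alone and stood at 0.66 among females. Differences between these medians were not tested.

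**Figure D4:**
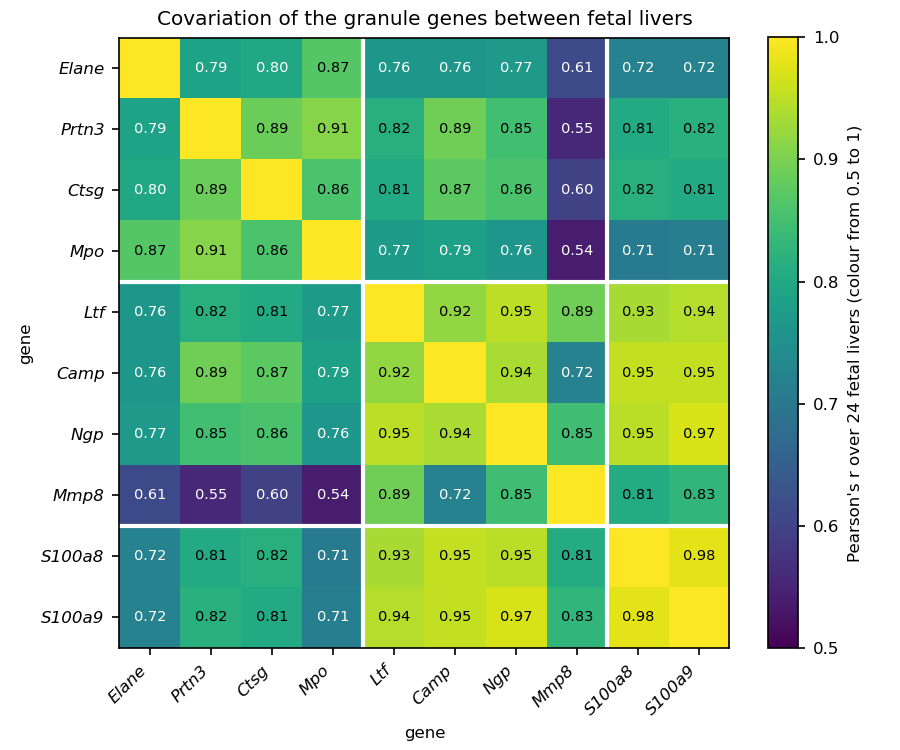
Pearson's r of log2 CPM between each pair of granule genes over 24 fetal livers with sex means removed; white lines separate the azurophil genes, the later granule genes and the calgranulins, and the colour runs from 0.5 to 1. The calgranulins and Ltf, Camp and Ngp form a block with r of at least 0.92, the azurophil genes another with r of at least 0.79, and Mmp8 has its lowest values, 0.54 to 0.61, with the azurophil genes.

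The 10 genes outside the set that followed the mean standardised level of the members most closely over the same 24 livers were Nfam1 with an r of 0.96, Lcn2 0.96, Lyz2 0.95, F630028O10Rik 0.95, Arhgdib 0.95, Rab44 0.94, Ncf1 0.94, Gm5483 0.94, Sla 0.94 and Myo1g 0.94. Lcn2 encodes an iron-siderophore-binding protein of the specific granule and Ncf1 a subunit of the phagocyte oxidase. Among 12915 genes compared, 170 had an r over 0.8 and 2 an r under -0.8, and the median was 0.04. Lcn2 stood at 97.3 to 240 CPM in fetal and 0 to 22.2 CPM in adult livers, and Rab44 at 25.1 to 52.0 and 0 to 0.697 CPM.

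Summed marker levels of other cell types were set against the same mean, as a description over 24 livers. The r was 0.97 for the further neutrophil genes, 0.86 for monocyte, 0.84 for megakaryocyte, 0.68 for eosinophil, 0.65 for B cell, 0.60 for macrophage and 0.56 for hepatocyte markers. It was -0.09 for erythroid and -0.05 for stem and progenitor markers. The r with the share of reads outside genes was -0.35 and with the log2 of the library total 0.22. The part of cell makeup and of library quality in the shared variation was not tested.

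Before the liver stage most of the set had no reads, and Prtn3, Ltf and Camp had reads in some embryos. Elane, Ctsg, Ngp, Mmp8, S100a8 and S100a9 had no read in any of the 12 eight-cell embryos, and in the 4 ES cell lines only Ctsg had reads, 2 in a male and 1 in a female line, which is under the floor of 3 reads. Prtn3 was read in all 6 male embryos, at 0.146 to 15.3 CPM with a median of 7.97 and 1 to 114 reads, and in 4 of 6 female embryos, at up to 23.4 CPM with a median of 2.38 and up to 139 reads. The highest embryo was below the lowest fetal liver at 34.8 CPM, and 9 of 12 embryos were above the highest adult liver at 0.719 CPM. Elane, its neighbour, had none.

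Ltf had 21 and 24 reads in 2 male embryos and 23 in 1 female embryo, and none in the other 9. Camp had 4 reads in 1 male embryo and 15, 12, 3 and 1 in 4 female embryos. Mpo had 1 read in 1 embryo. Reads that occur in some embryos and not in others were seen for these 4 genes only, at depths of 4659656 to 7725432 reads.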

How the data were processed

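The authors aligned reads to mm10 with TopHat, removed duplicates with Picard and counted reads per gene with HTSeq; the deposited values are these raw counts, with no normalization. The 5 HTSeq summary lines per library were left out of the tests; the no-feature line gave the share of reads outside genes. Samples were grouped by the stage and gender labels. Nothing states whether livers came from separate litters, so p-values measure the spread between these samples.

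Counts were tested with edgeR 4.0.16 in R 4.3.3 (filterByExpr, TMM, robust quasi-likelihood F test). Standard errors are the absolute log2 over the square root of F, and approximate intervals are 1.96 standard errors. Where adult reads were few, pooled reads over scaled library sizes gave ratios with exact binomial intervals. Correlations used log2 (CPM + 0.5) for members with a median of at least 10 reads. Alternatives included DESeq2 1.42.0. On simulated data, 200 of 200 genes changed by a log2 of 1 were recovered in the fetal comparison, with 2 false calls. Recovery of smaller changes, such as the log2 (male/female) of 0.23 of Mpo in fetal liver, was not tested. The 10 genes, the other lists and the rules were chosen with earlier results of these data known. Named genes were the members, at most 3 per list by size of the stage difference, and the 10 closest in pattern. Ctsc, Serpinb6a, Cebpa and Cebpb were named outside this rule, and other exceptions are marked. Transcript lengths came from GENCODE vM21 and promoters from RefSeq, for all 10 members.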

Additional observations from a re-analysis of the deposited data

Results flagged for a closer look

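In all, 3 values in eight-cell embryos stood apart from the other 5 embryos of their sex. Ltf was at 3.10 CPM (23 reads) in female embryo 7, Camp at 0.451 CPM (4 reads) in male embryo 4 and Mpo at 0.124 CPM (1 read) in female embryo 11, and the other embryos of the group had no read of that gene. Of 7 groups of 6 embryos with any read, 3 were past the 95% limit for a lone value. A single read is enough when all others are at 0, as in these 3 groups. The nominal rate of about 1 in 20 therefore does not apply, and no excess over chance is read from them.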

How the results depend on the processing

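All 10 members stayed called lower in adult liver with DESeq2, DESeq2 size factors, no filter, no fold threshold, either sex alone and the replicate block. With so few adult reads they had to differ in any setting, so nothing is read from this count. Over all genes and in either direction, 8742 were called in the main fit and 8753 with the replicate block. DESeq2 called 10785, and the fit without a filter 11686. Sample numbers did not pair the livers (r between fetal and adult deviations -0.09 to 0.05 over 24 pairs, 1 best with its own number), and the block was run for adult against fetal liver alone, since male and female livers share no numbers. In fetal liver, the adjusted p alone called 1 member (Mpo), and over all genes 4807 in fetal liver, 3400 in adult liver and 4384 for the interaction. Without a filter 1057 genes were called in fetal and 1518 in adult liver. With the share outside genes as covariate 9 genes were called in fetal liver, and Prtn3 (0.34), Ctsg (0.16), Camp (0.44), S100a8 (0.38) and S100a9 (0.39) changed sign. The subset of 6 males, chosen after seeing the data, gave 320 calls and changed the sign of Camp (0.078), S100a8 (0.10) and S100a9 (0.11). Leaving out each fetal liver, also added after seeing the data, gave 481 to 674 calls and 0 members; the log2 (male/female) ran from -0.0018 to 0.115 for Ltf, -0.053 to 0.037 for S100a8 and -0.044 to 0.041 for S100a9. None of these differences was called in any fit. A library total without its 10 most counted genes raised fetal medians to 33.9 CPM for Elane, 66.2 for Prtn3, 39.7 for Ctsg, 236 for Mpo, 199.9 for Camp, 505 for S100a8 and 798 for S100a9. Depth limits the adult values: 3 reads were 0.631 to 1.91 CPM there.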
